A study of Mus musculus with 2 samples.

Results

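The genes described are Fasl and Tnfsf10, which encode the death ligands FasL and TRAIL, and Fas and Tnfrsf10b, which encode the receptors these ligands bind. They are 4 of the 53715 genes in the files and were taken by their symbols, each of which had a single ID. Raw UMI (unique molecular identifier) counts of the 4 genes were read in barcodes with at least 1 UMI of Ncr1, the gene of the NK cell receptor NKp46, and in barcodes of a tumour or stroma-like cluster, by transcriptional cluster and by library. The Ncr1-positive barcodes lay outside the tumour-like cluster and numbered 9726 of 11809 retained barcodes in the IL-15SA+IL-21Fc library and 6984 of 7967 in the IL-15SA library. The tumour-like cluster held 1380 and 581 barcodes in the same 2 libraries.

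Natural killer (NK) cells were sorted from tumours of CT26, a mouse colon carcinoma line, which the labels give as lacking B2m, the light chain of MHC class I. The titles of the samples give IL-15SA+IL-21Fc as the treatment for 1 library and IL-15SA alone for the other, so IL-15SA is common to both groups and no untreated tumour is analysed here. Cells of a treatment were pooled before they were loaded, so each group is 1 library, the number of tumours behind it is not given in the labels, and a difference between the libraries has no replicate check. Mouse strain, age and dose are not given in the labels either.

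FasL and TRAIL are ligands of the tumour necrosis factor family by which cytotoxic lymphocytes kill target cells without granules. FasL binds Fas, and TRAIL binds the death receptor encoded in the mouse by Tnfrsf10b. Both receptors recruit the adaptor FADD and caspase-8, which starts a cascade of caspases. TRAIL is known in the mouse as a ligand of immature NK cells and of type 1 innate lymphoid cells (ILC1), whereas FasL is carried by activated NK and T cells.

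In GRCm38 (mm10), by GENCODE M21, Fasl (ENSMUSG00000000817) lies on chr1:161780689-161788495 on the minus strand. Tnfsf10 (ENSMUSG00000039304) lies on chr3:27317028-27342427, Fas (ENSMUSG00000024778) on chr19:34290666-34327772 and Tnfrsf10b (ENSMUSG00000022074) on chr14:69767472-69784411, all on the plus strand. All 4 are protein-coding. Fas overlaps the small RNA gene Gm27818 on its own strand, and 0 other genes overlap the remaining 3. UMIs were counted per gene, so a value does not tell exons or isoforms apart.

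The 250 bases before the RefSeq transcript start are shown for the 3 genes whose levels carry the results, since interferons and many cytokines signal through STAT factors. The windows are from RefSeq GRCm38.p6 and are printed 5′ to 3′ on the strand of the gene, at chr1:161788496-161788745 for Fasl, chr3:27316827-27317076 for Tnfsf10 and chr19:34290409-34290658 for Fas. Capitals mark a match to the STAT factor core TTCNNNGAA.
Fasl: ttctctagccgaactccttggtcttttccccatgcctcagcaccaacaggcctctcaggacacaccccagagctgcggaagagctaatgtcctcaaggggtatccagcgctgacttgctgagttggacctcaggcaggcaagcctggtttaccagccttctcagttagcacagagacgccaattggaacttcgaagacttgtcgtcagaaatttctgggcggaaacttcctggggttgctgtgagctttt
Tnfsf10: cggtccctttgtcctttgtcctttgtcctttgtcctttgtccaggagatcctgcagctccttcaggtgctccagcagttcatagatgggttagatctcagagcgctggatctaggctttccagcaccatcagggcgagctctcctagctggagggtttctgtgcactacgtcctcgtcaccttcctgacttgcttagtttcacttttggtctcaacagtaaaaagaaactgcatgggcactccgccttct
Fas: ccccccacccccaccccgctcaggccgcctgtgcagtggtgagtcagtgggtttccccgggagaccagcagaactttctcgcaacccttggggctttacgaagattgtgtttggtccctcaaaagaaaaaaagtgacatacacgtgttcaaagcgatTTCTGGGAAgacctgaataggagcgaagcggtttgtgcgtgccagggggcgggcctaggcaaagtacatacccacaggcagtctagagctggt
The motif TTCNNNGAA, which reads alike on both strands, was found in 7.02% of 32851 promoter windows of this length, and matched once in Fas, as TTCTGGGAA with its first base 93 bases before the start, and 0 times in Fasl and Tnfsf10. GAAANNGAA, the first 9 bases of the core of the interferon-stimulated response element, searched on both strands, was found in 7.13% of windows and in 0 of these 3. A match or its absence is only a statement about these letters. The RefSeq start of Tnfsf10 lies past the GENCODE start at chr3:27317028, so the last bases of its window fall within the GENCODE gene. Tnfrsf10b is named without a sequence.

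The IL-15SA+IL-21Fc library held 35336180 UMIs in 12435 barcodes, and the IL-15SA library 30893388 UMIs in 8386 barcodes. Ncr1-positive barcodes had a median of 2436 and 3217.5 UMIs in these libraries. The libraries shared 60 barcodes, 0.483% and 0.715% of their barcodes. In Ncr1-positive barcodes the 11 NK markers summed to 35170 CPM (UMIs of a gene per 1000000 UMIs) in the IL-15SA+IL-21Fc library and 38485 CPM in the IL-15SA library, and 0 of the 11 were at 0. The 13 tumour or stroma markers other than Lgals1, which NK cells also transcribe, summed to 114 and 62.4 CPM there, and 12 of the full list of 14 were higher in the IL-15SA+IL-21Fc library. The 6 dendritic cell markers summed to 107 and 40.5 CPM, the 9 T cell markers to 535 and 430 CPM, and the 6 ILC1 markers to 264 and 214 CPM. Of these lists, Cd8b1 was at 0 in the IL-15SA+IL-21Fc library, and Cd5, Clec9a and Cxcl5 in the IL-15SA library. The gate does not part ILC1 from NK cells, since both carry NKp46, and Ncr1-positive barcodes can hold either. In the tumour-like cluster the 6 ILC1 markers summed to 1450 and 1106 CPM. There Tmem176a and Tmem176b of that list were at 564 and 763 CPM over both libraries, so the ILC1 sums are not particular to ILC1. The tumour-like cluster, led by Lrp1, Cald1 and Col1a2, had 11 tumour or stroma markers at 5 times their median over clusters, yet still held Ncr1 at 393 CPM in the IL-15SA+IL-21Fc library and 572 CPM in the IL-15SA library, so its barcodes mix tumour-like and NK transcripts. B2m was at 4559 and 4697 CPM in it, and at 5088 and 4544 CPM in Ncr1-positive barcodes. Since the cluster mixes transcripts, its B2m level is not that of tumour cells alone. Transcripts of a gene also do not show that its protein is made.

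Fasl was the member with the most UMIs in NK cells and was modestly higher with IL-21Fc. In Ncr1-positive barcodes it had 5273 UMIs in the IL-15SA+IL-21Fc library, or 191 CPM (95% interval 185 to 196), against 4076 UMIs in the IL-15SA library, or 154 CPM (149 to 159). The IL-15SA+IL-21Fc library was thus higher by a ratio of 1.24 (1.19 to 1.29). The 95% intervals cover counting error only, and are exact Poisson for levels, exact conditional binomial for ratios and Clopper-Pearson for shares. A barcode held at most 11 Fasl UMIs in the IL-15SA+IL-21Fc library and at most 10 in the IL-15SA library, and 369 and 310 barcodes held 3 or more.

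Tnfsf10 was sparser and differed between the libraries by a similar ratio. It had 504 UMIs, or 18.2 CPM (16.7 to 19.9), in the IL-15SA+IL-21Fc library and 380 UMIs, or 14.4 CPM (12.9 to 15.9), in the IL-15SA library, a ratio of 1.27 (1.11 to 1.45). For Fas the library with IL-21Fc held 522 UMIs, or 18.9 CPM (17.3 to 20.6), and the IL-15SA library 409 UMIs, or 15.5 CPM (14.0 to 17.0), a ratio of 1.22 (1.07 to 1.39). Tnfrsf10b had 75 UMIs, or 2.71 CPM (2.13 to 3.40), against 54 UMIs, or 2.04 CPM (1.53 to 2.66), a ratio of 1.33 whose interval of 0.924 to 1.92 includes 1. When each barcode was thinned to 1000 UMIs, which leaves fewer UMIs, the log2 ratio was 0.15 (-0.18 to 0.50) for Tnfsf10 and 0.28 (-0.04 to 0.61) for Fas, and both intervals then include 0. For Fasl it was 0.29 (0.19 to 0.40).

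All 4 genes were higher in the IL-15SA+IL-21Fc library, and none by as much as 1.5-fold. Of the 9177 genes that reached 5 CPM in either library, 2.24% were higher by 1.5-fold or more, with 1 CPM added to both values, 0.501% were lower by as much, and 2.75% were either. The median log2 ratio of these genes was -0.001, and those of Fasl, Tnfsf10, Fas and Tnfrsf10b were 0.31, 0.32, 0.27 and 0.29, which lay at percentiles 90.4, 91.4, 88.4 and 89.5. Tnfrsf10b is itself under the 5 CPM filter. Tumour, stroma and dendritic cell markers also summed to higher levels in this library, and their part in these ratios was not tested. Without the barcodes that held a UMI of a tumour or stroma marker, Lgals1 left out, the log2 ratio was 0.31 for Fasl, 0.34 for Tnfsf10, 0.28 for Fas and 0.35 for Tnfrsf10b.

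**Figure D1:**
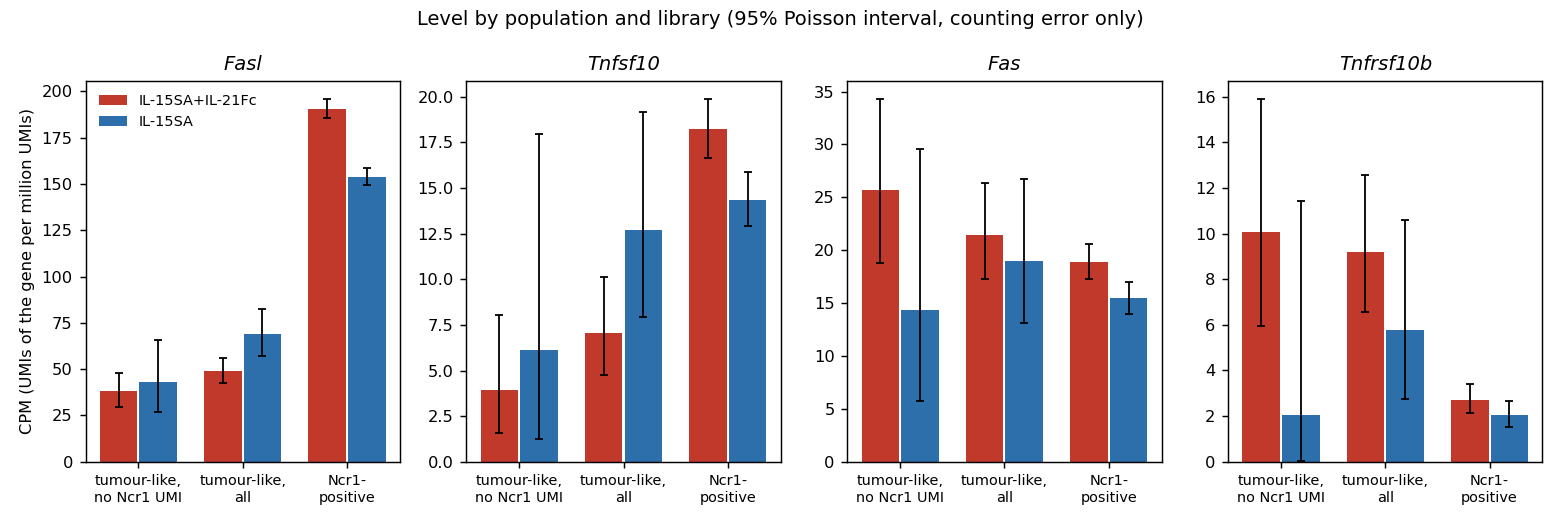
Level in CPM (vertical axis, from 0, 1 scale per gene) of the 4 genes in tumour-like barcodes without an Ncr1 UMI, all tumour-like barcodes and Ncr1-positive barcodes, with the IL-15SA+IL-21Fc library in red and the IL-15SA library in blue; bars are summed UMIs of 1 library and lines 95% Poisson intervals. Fasl stands at 191 and 154 CPM in Ncr1-positive barcodes and well below in tumour-like ones, while Tnfrsf10b stands at 9.20 and 5.76 CPM in all tumour-like barcodes and below 3 CPM in Ncr1-positive ones.

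Depth differed between the libraries, so shares of barcodes with a UMI were compared after each barcode was thinned to 1000 UMIs, which left out 0 barcodes. A Fasl UMI was then found in 17.6% of Ncr1-positive barcodes (16.8 to 18.3) in the IL-15SA+IL-21Fc library and in 14.5% (13.7 to 15.3) in the IL-15SA library. Unthinned, the shares stood in the other order, 36.6% and 38.2%, at the unequal median depths given above. In tumour-like barcodes without an Ncr1 UMI, taken as the background, the thinned shares were 4.91% and 4.07%. These barcodes still held Prf1, the perforin gene, at 203 and 336 CPM, so NK transcripts remain in this background. The median depth of those barcodes was 1890 and 1698 UMIs. The share for Fasl in NK cells thus stood above this background in both libraries.

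For Tnfsf10 the thinned share was 1.76% (1.51 to 2.04) in the IL-15SA+IL-21Fc library and 1.65% (1.36 to 1.97) in the IL-15SA library, and at this depth the 2 intervals overlap. Without thinning it was 4.38% and 4.68%. The background for Tnfsf10 was 1 barcode in each library, 0.164% (0.0041 to 0.908) and 0.581% (0.015 to 3.20). In the IL-15SA library the interval of the background thus includes the share in NK cells. Thinned barcodes held Fas in 2.04% (1.76 to 2.34) and 1.65% (1.36 to 1.97), and Tnfrsf10b in 0.247% (0.158 to 0.367) and 0.215% (0.120 to 0.354). Without thinning these shares were 4.49% and 4.73% for Fas, and 0.668% and 0.702% for Tnfrsf10b. The tumour-like barcodes without Ncr1 give no background for the receptors, which tumour cells can also transcribe, and held Fas in 2.45% and 0.581% of thinned barcodes.

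Barcodes of all 4 genes were also read jointly, without thinning. A UMI of either ligand gene was found in 39.3% of Ncr1-positive barcodes of the IL-15SA+IL-21Fc library and in 40.9% of the IL-15SA library, and a UMI of either receptor gene in 5.13% and 5.36%. None of the 4 was found in 57.7% and 56.2%, which at this depth does not show that those cells lack them. Both ligand genes were found together in 167 and 141 barcodes. Of the barcodes with a Tnfsf10 UMI, 39.2% in the IL-15SA+IL-21Fc library and 43.1% in the IL-15SA library also held Fasl, against 36.5% and 38.0% of the rest. After thinning these shares were 22.2% against 17.5% in the IL-15SA+IL-21Fc library and 13.0% against 14.5% in the IL-15SA library, in opposite directions and on 38 and 15 barcodes with both genes.

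The states of NK cells were read from clusters that were built without the 4 genes, so that none of them defined a cluster. Cluster 1 was led by the granzyme genes Gzmg, Gzmf, Gzmd and Gzme, and cluster 2 by the protease gene Cma1, the chemokine gene Ccl5, Serpinb9b and S1pr5. Cluster 3 was led by cell cycle genes such as Nusap1 and Mki67, and cluster 6 by the interferon-induced genes Ifit2, Slfn5 and Mx1. Cluster 4 was led by Cd74, Krt83, H2-Aa and Cxcr6 and also held Il7r among its top 10 genes. It thus carries both MHC class II genes of dendritic cells and the ILC1 markers Cxcr6 and Il7r, and is given by number. Cluster 7 held 40 and 43 Ncr1-positive barcodes and was not compared. Cluster sizes are not set against each other, because leading genes of several clusters were themselves at unequal levels in the 2 libraries.

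Fasl differed by less between these states than Tnfsf10. In the IL-15SA+IL-21Fc library its level over clusters 1, 2, 3, 4 and 6 was 180, 206, 177, 210 and 197 CPM. With IL-15SA alone it was 141, 173, 145, 189 and 172 CPM in the same clusters. The highest cluster was 1.18 times the lowest in the IL-15SA+IL-21Fc library and 1.34 times in the IL-15SA library, with cluster 4 highest in both. Of the neighbours in the order of levels, 0 of 4 pairs had a ratio whose interval left out 1 in the IL-15SA+IL-21Fc library, and 1 of 4 in the IL-15SA library, cluster 6 over cluster 3, at 1.18 (1.01 to 1.38). Set against the other Ncr1-positive barcodes, clusters 2 and 4 were higher and clusters 1 and 3 lower in both libraries, with 8 of 10 intervals that leave out 1. Cluster 4 had a ratio of 1.12 (1.05 to 1.20) in the IL-15SA+IL-21Fc library and 1.27 (1.16 to 1.39) in the IL-15SA library, and cluster 1 of 0.928 (0.871 to 0.988) and 0.881 (0.824 to 0.941). With a finer clustering, at resolution 1.0 in place of 0.5, Fasl was at 217 and 199 CPM in the cluster led by Krt83 and Cxcr6, and at 117 CPM (87.6 to 153) and 92.8 CPM (54.0 to 149) in the cluster led by the MHC class II genes Cd74 and H2-Aa, on 53 and 17 UMIs.

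The higher Fasl level of the IL-15SA+IL-21Fc library was found in each of the 5 clusters, as for 12.7% of all genes tested. The ratio was 1.28 (1.18 to 1.38) in cluster 1, 1.19 (1.08 to 1.31) in cluster 2 and 1.22 (1.13 to 1.32) in cluster 3. It was 1.11 (0.996 to 1.23) in cluster 4 and 1.15 (0.953 to 1.38) in cluster 6, where the intervals include 1. In the finer clustering Fasl was higher in 10 of 10 clusters with at least 100 Ncr1-positive barcodes per library. Split by Klrg1, the ratio between libraries was 1.26 (1.21 to 1.32) in barcodes with a UMI and 1.07 (0.966 to 1.17) in those without, where the interval includes 1, and the difference between these ratios was not tested.

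Tnfsf10 differed far more between states than between treatments. In the IL-15SA+IL-21Fc library cluster 4 stood at 44.8 CPM (38.9 to 51.4), cluster 6 at 32.95 (25.02 to 42.6), cluster 3 at 17.0 (14.3 to 20.1), cluster 1 at 9.39 (7.30 to 11.9) and cluster 2 at 4.95 (3.29 to 7.16). In the IL-15SA library cluster 4 stood at 38.5 CPM (31.7 to 46.3), cluster 6 at 35.5 (24.98 to 48.9), cluster 3 at 15.6 (13.2 to 18.4), cluster 1 at 5.44 (4.03 to 7.20) and cluster 2 at 8.38 (5.77 to 11.8). The highest cluster was 9.06 times the lowest in the IL-15SA+IL-21Fc library and 7.07 times in the IL-15SA library. Clusters 4 and 6 were high, cluster 3 was in the middle and clusters 1 and 2 were low in both libraries.

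Among neighbours in this order, all 4 ratios had intervals above 1 in the IL-15SA+IL-21Fc library. In the IL-15SA library clusters 4 and 6 did not differ beyond counting error, at 1.09 (0.743 to 1.62), nor did clusters 2 and 1, at 1.54 (0.959 to 2.44). Cluster 4 was 3.46 times the other Ncr1-positive barcodes (2.88 to 4.14) in the IL-15SA+IL-21Fc library and 3.39 times (2.70 to 4.25) in the IL-15SA library. It gave 40.5% of the Tnfsf10 UMIs from 19.6% of the Ncr1-positive barcodes in the IL-15SA+IL-21Fc library, and 29.7% from 13.6% in the IL-15SA library.

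**Figure D2:**
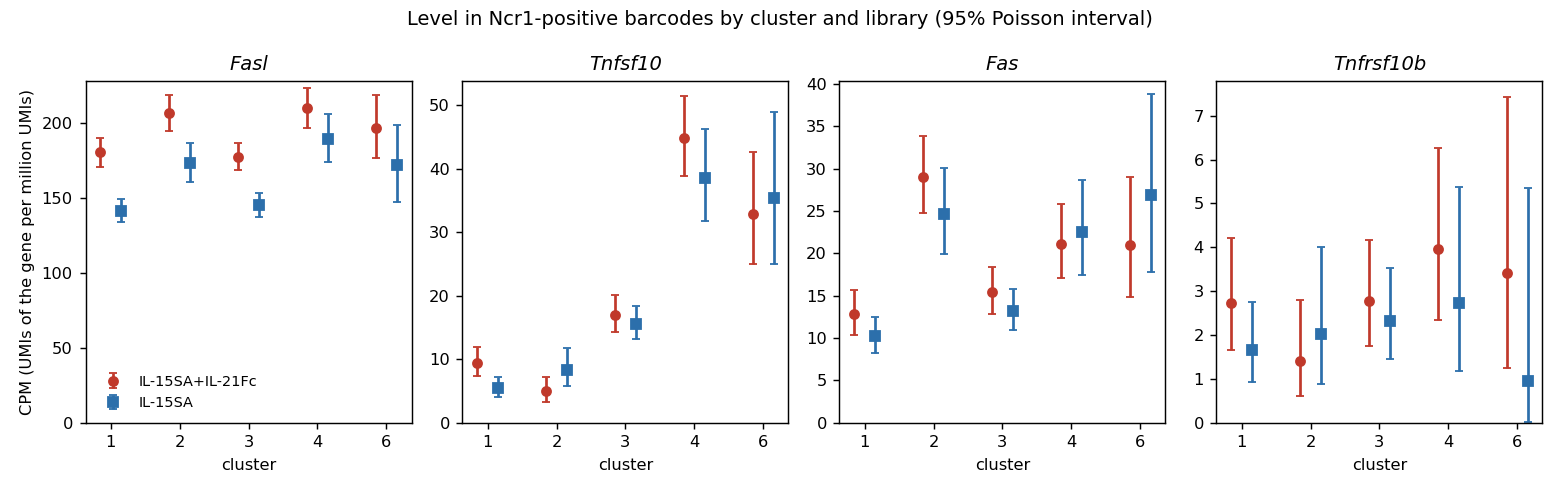
Level in CPM (vertical axis, from 0, 1 scale per gene) of each gene in Ncr1-positive barcodes of clusters 1, 2, 3, 4 and 6 (horizontal axis), with the IL-15SA+IL-21Fc library as red circles and the IL-15SA library as blue squares; lines are 95% Poisson intervals. Fasl lies between 141 and 210 CPM in all clusters, whereas Tnfsf10 lies between 4.95 and 44.8 CPM and is highest in clusters 4 and 6.

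The finer clustering was made anew and does not divide the clusters above. It had a cluster led by Krt83, Cxcr6 and Il7r and another led by the MHC class II genes Cd74 and H2-Aa. Tnfsf10 was at 45.5 CPM in the Cxcr6-led barcodes of the IL-15SA+IL-21Fc library and 43.0 CPM in those of the IL-15SA library. In the barcodes led by MHC class II genes, which were too few to be compared, Tnfsf10 was at 37.5 CPM, on 17 UMIs, and 16.4 CPM, on 3 UMIs. The finer clustering also had 3 clusters led by cell cycle genes. Those led by the S phase genes Rrm2 and Cdc6 had Tnfsf10 at 7.70 CPM in the IL-15SA+IL-21Fc library and 7.56 CPM in the IL-15SA library, and those led by Nusap1 and Ube2c had 24.8 and 24.2 CPM. Those led by Ccnb2 and Cenpa had 1.84 CPM, on 1 UMI in 173 barcodes, and 21.5 CPM, on 16 UMIs in 191 barcodes, a ratio of 0.0857 (0.0020 to 0.551) that runs against the ratio of 1.27 over all Ncr1-positive barcodes. The ILC1 marker Cxcr6 was at 11.4 and 8.8 CPM in the S phase barcodes and at 58.2 and 45.2 CPM in those led by Nusap1, and its part in the difference of Tnfsf10 was not tested.

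Tnfsf10 also differed with single markers, without clusters. Klrg1 encodes a receptor of mature NK cells. Barcodes with a Klrg1 UMI had Tnfsf10 at 12.2 CPM and those without at 42.8 CPM in the IL-15SA+IL-21Fc library, a ratio of 0.284 (0.238 to 0.340). For the IL-15SA library the level was 36.6 CPM in barcodes without one, and the ratio with over without was 0.301 (0.242 to 0.375). Barcodes with a Klrg1 UMI are deeper, at a median of 2648 against 1923 UMIs in the IL-15SA+IL-21Fc library and 3501.5 against 2304.5 in the IL-15SA library. After thinning the ratios were 0.340 (0.252 to 0.458) and 0.323 (0.222 to 0.475).

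Cxcr6, a chemokine receptor gene of tissue-resident lymphocytes, went with high Tnfsf10. Barcodes with a Cxcr6 UMI had Tnfsf10 at 50.8 CPM and those without at 15.1 CPM in the IL-15SA+IL-21Fc library, a ratio of 3.37 (2.73 to 4.14). With IL-15SA alone the levels were 40.7 CPM with and 11.9 CPM without, a ratio of 3.42 (2.67 to 4.34). After thinning the ratios were 2.43 (1.63 to 3.53) and 3.17 (1.98 to 4.91). Il7r, the interleukin 7 receptor gene of ILC1, had ratios of 2.05 (1.31 to 3.06) and 2.64 (1.64 to 4.06), which after thinning were 1.89 (0.850 to 3.67) and 1.83 (0.583 to 4.40). Eomes, a transcription factor gene of NK cells that ILC1 lack, had ratios of 0.588 (0.468 to 0.734) and 0.482 (0.375 to 0.615). After thinning they were 0.748 (0.505 to 1.08) and 0.262 (0.131 to 0.476), so that in the IL-15SA+IL-21Fc library the interval includes 1. Itga1, a further ILC1 marker, had a ratio of 1.03 (0.729 to 1.41) in the IL-15SA+IL-21Fc library, which includes 1, and of 1.48 (1.12 to 1.94) in the IL-15SA library. After thinning both intervals for Itga1 include 1, at 0.787 (0.371 to 1.48) and 1.61 (0.916 to 2.67). The interferon-induced gene Ifit3 had ratios of 2.50 (1.81 to 3.395) in the IL-15SA+IL-21Fc library and 1.72 (0.782 to 3.31) in the IL-15SA library.

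The lower Tnfsf10 level of barcodes with Klrg1 was also seen within states. The ratio with over without a Klrg1 UMI was below 1 in each of the 5 clusters in both libraries. In the IL-15SA+IL-21Fc library it ran from 0.310 (0.179 to 0.543) in cluster 6 to 0.576 (0.425 to 0.775) in cluster 4, with 5 of 5 intervals below 1. With IL-15SA alone it ran from 0.288 (0.201 to 0.417) in cluster 3 to 0.915 (0.622 to 1.35) in cluster 4, with 3 of 5 intervals below 1. For Cxcr6 the ratio with over without was above 1 in 9 of 10 clusters and libraries, and 6 of the 10 intervals include 1. It was 0.474 (0.012 to 2.73) in cluster 1 of the IL-15SA+IL-21Fc library, and in cluster 4 it was 1.84 (1.37 to 2.46) there and 1.41 (0.943 to 2.08) in the IL-15SA library. In cycling barcodes, Tnfsf10 was at 45.4 CPM with a Cxcr6 UMI and 14.2 CPM without in the IL-15SA+IL-21Fc library, and at 42.2 and 13.3 CPM in the IL-15SA library.

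Between libraries, Tnfsf10 was higher with IL-21Fc in 3 of 5 clusters. The ratio was 1.72 (1.18 to 2.54) in cluster 1, 1.09 (0.858 to 1.38) in cluster 3 and 1.16 (0.921 to 1.48) in cluster 4. It was 0.591 (0.344 to 1.01) in cluster 2 and 0.929 (0.605 to 1.44) in cluster 6. The interval lay apart from 1 in cluster 1 alone, on 69 UMIs in the IL-15SA+IL-21Fc library and 49 in the IL-15SA library. Among barcodes without a Klrg1 UMI the ratio between libraries was 1.17 (0.937 to 1.46), and among those with one 1.11 (0.928 to 1.32), both smaller than the 1.27 of all Ncr1-positive barcodes. With each cluster given the same weight in both libraries, the log2 ratio was 0.16 for Tnfsf10, against 0.34 for the summed UMIs. For Fasl it was 0.26 against 0.31, for Fas 0.15 against 0.29 and for Tnfrsf10b 0.39 against 0.41.

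**Figure D3:**
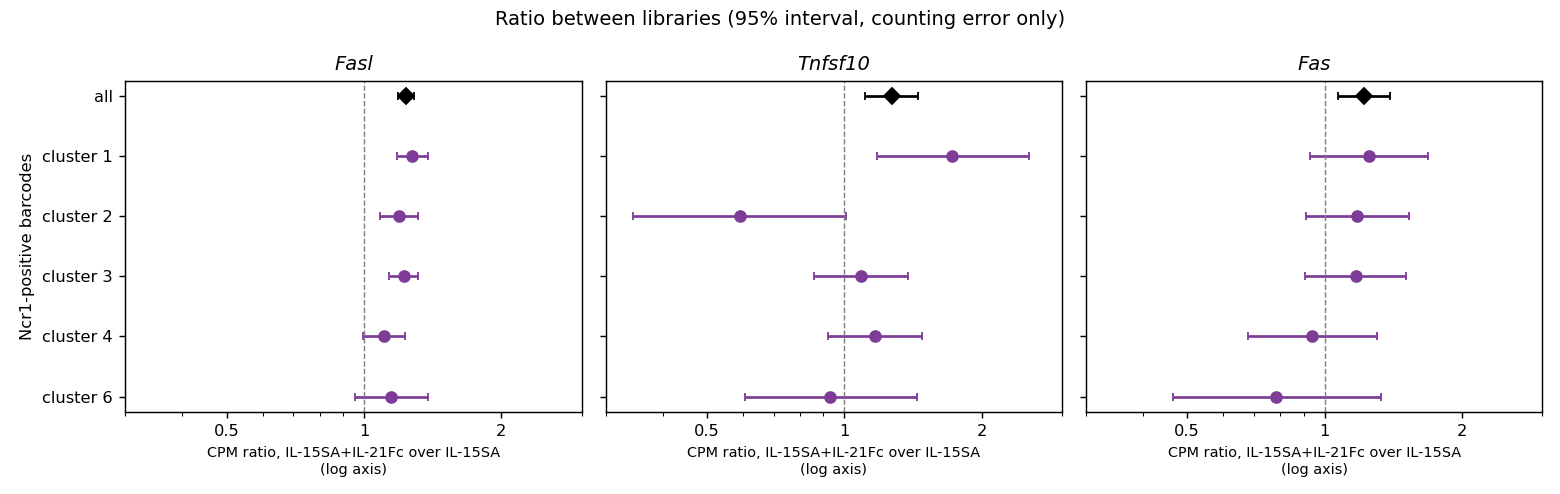
Ratio of CPM of the IL-15SA+IL-21Fc library over the IL-15SA library (horizontal log axis) for Fasl, Tnfsf10 and Fas, in all Ncr1-positive barcodes (black diamond) and in each cluster (purple circles); lines are 95% intervals and the dashed line marks 1. All 5 cluster ratios of Fasl lie above 1, from 1.11 to 1.28, whereas those of Tnfsf10 run from 0.591 to 1.72 and those of Fas from 0.783 to 1.25.

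Fas, the receptor of FasL, followed another order of states than Tnfsf10. In the IL-15SA+IL-21Fc library cluster 2 had Fas at 29.0 CPM (24.7 to 33.8), cluster 4 at 21.1 (17.1 to 25.8), cluster 6 at 21.02 (14.8 to 29.0), cluster 3 at 15.5 (12.9 to 18.4) and cluster 1 at 12.8 (10.3 to 15.7). With IL-15SA alone cluster 2 had 24.6 CPM (19.98 to 30.1), cluster 4 22.5 (17.4 to 28.6), cluster 6 26.8 (17.8 to 38.8), cluster 3 13.2 (10.995 to 15.7) and cluster 1 10.2 (8.24 to 12.5). Clusters 2, 4 and 6 were above clusters 3 and 1 in both libraries, as they also were for Fasl. For Fas in the IL-15SA+IL-21Fc library, the ratio of cluster 6 over cluster 3 was 1.36 (0.917 to 1.97), which includes 1.

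Cluster 2 was above cluster 4 in the IL-15SA+IL-21Fc library, at a ratio of 1.37 (1.06 to 1.79), and clusters 6, 2 and 4 were not told apart in the IL-15SA library. The granzyme-led cluster 1 had 0.607 times the Fas level of the other Ncr1-positive barcodes (0.481 to 0.761) in the IL-15SA+IL-21Fc library and 0.563 times (0.442 to 0.713) in the IL-15SA library. Cluster 2 had 1.78 times (1.47 to 2.15) and 1.78 times (1.40 to 2.24). Cluster 2, where Fas was high, was among the lowest for Tnfsf10.

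Among the markers, Gzmd went with low Fas, as the granzyme-led cluster 1 did. Barcodes with a UMI of Gzmd, a granzyme gene, had Fas at 7.78 CPM against 20.3 CPM without in the IL-15SA+IL-21Fc library, and at 10.7 against 17.3 CPM in the IL-15SA library. The ratios were 0.383 (0.245 to 0.572) and 0.620 (0.479 to 0.795), and after thinning 0.540 (0.265 to 0.987) and 0.526 (0.296 to 0.882). Gzmd is near-identical to neighbouring granzyme genes, so its own UMIs are uncertain. With Klrg1 the Fas ratios were 0.666 (0.548 to 0.814) and 0.620 (0.485 to 0.802). For Fasl the ratios over the 12 markers and both libraries ran from 0.782 to 1.14, with Klrg1 at 0.928 (0.868 to 0.992) and 0.782 (0.719 to 0.852).

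**Figure D4:**
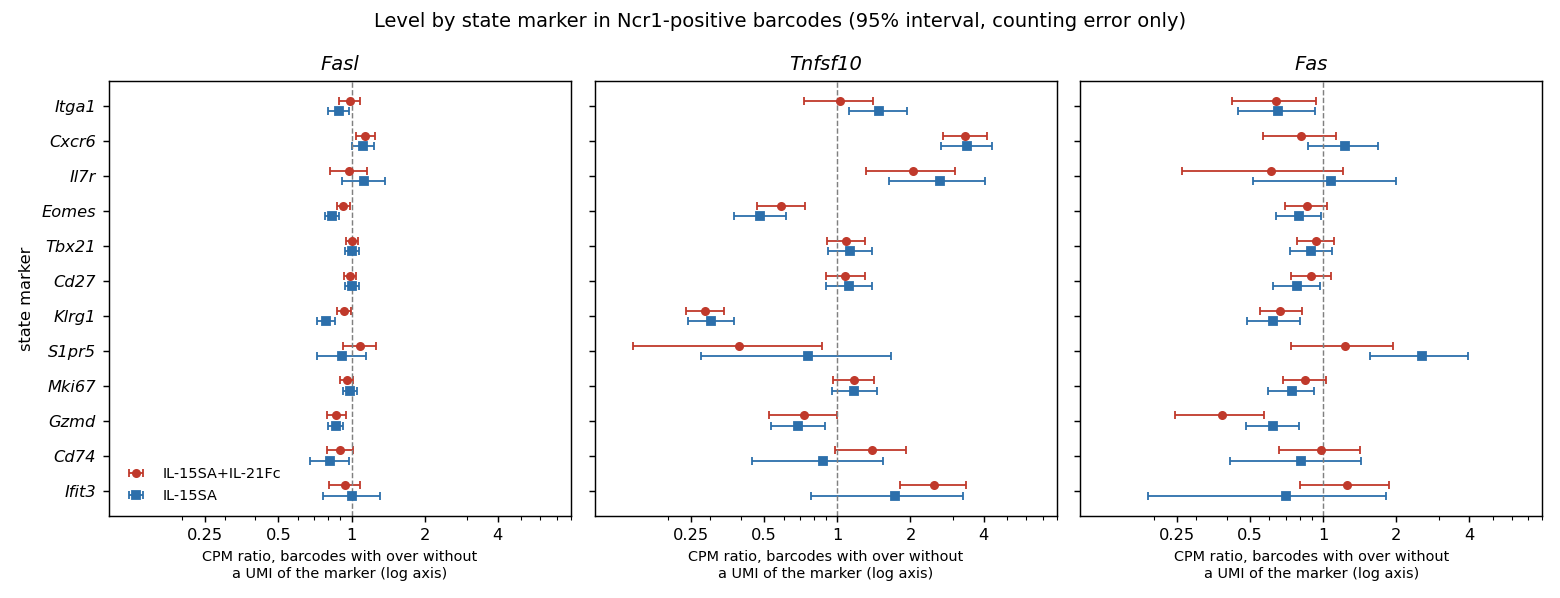
Ratio of CPM in Ncr1-positive barcodes with over without a UMI of each of 12 state markers (horizontal log axis, markers down the page) for Fasl, Tnfsf10 and Fas, with the IL-15SA+IL-21Fc library as red circles above the IL-15SA library as blue squares; lines are 95% intervals and values are without thinning. Tnfsf10 lies at 0.284 and 0.301 for Klrg1 and at 3.37 and 3.42 for Cxcr6, whereas those of Fasl run from 0.782 to 1.14 over all markers.

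Between libraries Fas was higher with IL-21Fc in 3 of 5 clusters. Cluster 1 had a ratio of 1.25 (0.928 to 1.69), cluster 2 of 1.18 (0.910 to 1.53), cluster 3 of 1.17 (0.907 to 1.51), cluster 4 of 0.938 (0.679 to 1.30) and cluster 6 of 0.783 (0.466 to 1.33). Each of these 5 intervals includes 1, unlike that of the summed barcodes. Tnfrsf10b had between 1 and 23 UMIs per cluster and library, at 0.959 to 3.96 CPM, and no neighbours in its order of levels differed beyond counting error in either library.

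In the tumour-like barcodes, which the labelled sort should leave out, Fasl was lower than in NK cells in both libraries and Tnfsf10 in the IL-15SA+IL-21Fc library. Fasl was at 49.1 CPM (42.6 to 56.2) there and at 191 CPM in Ncr1-positive barcodes of the IL-15SA+IL-21Fc library, which is 3.88-fold lower (3.38 to 4.48). For the IL-15SA library the level was 69.1 CPM (57.3 to 82.7) and 154 CPM, which is 2.23-fold lower (1.86 to 2.69). At this 2-fold mark 12.3% of 10475 genes were lower in the tumour-like barcodes of the IL-15SA+IL-21Fc library, and 8.89% of 10460 in the IL-15SA library.

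Fasl UMIs were also set against Ncr1 UMIs. In all tumour-like barcodes there were 12.5 Fasl UMIs per 100 Ncr1 UMIs in the IL-15SA+IL-21Fc library and 12.1 in the IL-15SA library. The Ncr1-positive barcodes had 11.6 and 10.1. The tumour-like total includes barcodes without an Ncr1 UMI, and low NK markers helped to name the cluster, so its values are raised by construction. With an Ncr1 UMI, tumour-like barcodes had 0.0841 and 0.0998 Fasl UMIs per Ncr1 UMI, against 0.116 and 0.101 in Ncr1-positive barcodes. Asking for an Ncr1 UMI leaves out 611 of 1380 and 172 of 581 tumour-like barcodes. It leaves out 703 of 10429 and 402 of 7386 barcodes of the NK clusters. The tumour-like values with an Ncr1 UMI are thus lowered by construction. In tumour-like barcodes without an Ncr1 UMI, 611 and 172 in number, Fasl was at 38.0 and 43.0 CPM. These barcodes also held Prf1, the perforin gene of cytotoxic lymphocytes, at 203 and 336 CPM, against 1435 and 1911 CPM in Ncr1-positive barcodes. In the tumour-like barcodes Fasl was lower in the IL-15SA+IL-21Fc library than in the IL-15SA library, at a ratio of 0.710 (0.564 to 0.896), where Ncr1 was also lower, at 393 against 572 CPM.

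Tnfsf10 was at 7.08 CPM (4.78 to 10.1) in the tumour-like barcodes of the IL-15SA+IL-21Fc library, which is 2.57-fold lower than the 18.2 CPM of Ncr1-positive barcodes (1.78 to 3.85). The IL-15SA library had 12.7 CPM (7.94 to 19.2) against 14.4 CPM, a ratio of 0.883 (0.547 to 1.36). Without an Ncr1 UMI, 7 and 3 UMIs of Tnfsf10 were left, at 3.91 and 6.15 CPM, and in the IL-15SA library the interval of the ratio still includes 1, at 0.428 (0.088 to 1.26). There were 1.80 and 2.22 Tnfsf10 UMIs per 100 Ncr1 UMIs in tumour-like barcodes of these libraries, against 1.11 and 0.943 in Ncr1-positive barcodes. The tumour-like total includes barcodes without an Ncr1 UMI, and the cluster was named in part by low NK markers, so its values are raised by construction. In tumour-like barcodes with an Ncr1 UMI there were 0.0138 and 0.0192 Tnfsf10 UMIs per Ncr1 UMI, against 0.0111 and 0.0094 in Ncr1-positive barcodes. As for Fasl, asking for an Ncr1 UMI lowers the tumour-like values by construction.

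Fas was about level between the populations. It was at 21.5 CPM (17.3 to 26.4) in tumour-like and 18.9 CPM in Ncr1-positive barcodes of the IL-15SA+IL-21Fc library, a ratio of 1.14 (0.901 to 1.42). Tumour-like barcodes of the IL-15SA library had 19.0 CPM (13.1 to 26.7) and its Ncr1-positive barcodes 15.5 CPM, a ratio of 1.23 (0.836 to 1.76). In all tumour-like barcodes there were 5.47 Fas UMIs per 100 Ncr1 UMIs in the IL-15SA+IL-21Fc library and 3.33 in the IL-15SA library. The Ncr1-positive barcodes had 1.14 and 1.02. Again the tumour-like total includes barcodes without an Ncr1 UMI, and low NK markers helped to name the cluster, so its values are raised by construction. With an Ncr1 UMI, tumour-like barcodes had 0.0270 and 0.0262 Fas UMIs per Ncr1 UMI, against 0.0114 and 0.0102 in Ncr1-positive barcodes. These tumour-like values are lowered by construction, as for Fasl.

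Tnfrsf10b, the TRAIL receptor gene, had 39 UMIs in the tumour-like barcodes of the IL-15SA+IL-21Fc library, or 9.20 CPM (6.54 to 12.6), and 10 UMIs in those of the IL-15SA library, or 5.76 CPM (2.76 to 10.6). This was 3.40 times (2.24 to 5.07) the level of Ncr1-positive barcodes in the IL-15SA+IL-21Fc library and 2.82 times (1.28 to 5.60) in the IL-15SA library. At this 2-fold mark 21.3% and 21.1% of genes were higher in the tumour-like barcodes of these libraries, so a call in this direction is common. Tnfrsf10b passed the 5 CPM filter only through the tumour-like barcodes, which fixes the direction. Without an Ncr1 UMI the level was 10.1 CPM in the IL-15SA+IL-21Fc library, on 18 UMIs, and 2.05 CPM in the IL-15SA library, on 1 UMI, where the ratio was 1.00 (0.025 to 5.84). Between libraries the ratio in all tumour-like barcodes was 1.60 (0.783 to 3.59) for Tnfrsf10b and 1.13 (0.751 to 1.74) for Fas. Neither receptor gene was shown to differ there at this depth.

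The rest of the death-receptor pathway was read from a list of 52 genes, of which 41 reached 5 CPM in Ncr1-positive barcodes of either library. At 1.5-fold with 1 CPM added, 2 of the 41 were higher in the IL-15SA+IL-21Fc library and 0 lower, against the 2.24% and 0.501% of all genes tested. The list's median log2 ratio was 0.04, with 22 genes above 0 and 19 below, against a median of -0.001 over all genes tested. The 2 genes were Lta and Ltb, which encode the lymphotoxin chains. Lta, which is among the leading genes of cluster 4, was at 30.7 CPM in the IL-15SA+IL-21Fc library and 19.8 CPM in the IL-15SA library, a ratio of 1.55 (1.39 to 1.73), and Ltb was at 844 and 509 CPM.

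Of the ligands and shedding enzymes, 7 of 8 measured genes were above 0, with a median log2 ratio of 0.27. Tnfsf8, which encodes the CD30 ligand, was at 14.9 CPM in the IL-15SA+IL-21Fc library and 10.2 CPM in the IL-15SA library, a ratio of 1.45 (1.24 to 1.70). Tnf was at 26.2 and 25.2 CPM, and Adam10, which encodes a protease that sheds FasL, at 47.4 and 47.6 CPM, both with intervals of the ratio that include 1. Among the other receptors, Tnfrsf1a had 19.4 CPM in the IL-15SA+IL-21Fc library and 13.8 CPM in the IL-15SA library, at a ratio of 1.40 (1.23 to 1.61). Tnfrsf1b had 67.1 and 63.9 CPM. Both encode receptors of tumour necrosis factor.

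The signal complex and caspase genes had 12 of 17 members below 0, a median log2 ratio of -0.04 and none past 1.5-fold. Mlkl, which encodes the pore protein of necroptosis, was at 18.5 CPM in the IL-15SA+IL-21Fc library and 24.5 CPM in the IL-15SA library, a ratio of 0.753 (0.669 to 0.847). The genes directly at the receptors lay near 1: Fadd, the adaptor gene, was at 14.7 and 15.3 CPM, Casp8 at 68.4 and 70.2 CPM and Ripk1 at 19.8 and 20.5 CPM. Cflar, which encodes the caspase-8 inhibitor c-FLIP, was at 50.01 and 55.1 CPM, and Bid, a substrate of caspase-8, at 63.9 and 69.5 CPM.

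The inhibitor genes were split, with 8 of 14 above 0 and a median log2 ratio of 0.05. Bcl2l1, which encodes the anti-apoptotic protein BCL-XL, had a ratio of 0.775 (0.713 to 0.843), and Faim, an inhibitor of Fas signalling, one of 0.864 (0.803 to 0.930). Bcl2 was at 121 and 137 CPM in the IL-15SA+IL-21Fc and IL-15SA libraries, Mcl1 at 113 and 108 CPM, and the inhibitor of apoptosis genes Birc3, Birc2 and Xiap at 83.4 and 69.2, 28.5 and 28.6, and 22.7 and 22.0 CPM.

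**Figure D5:**
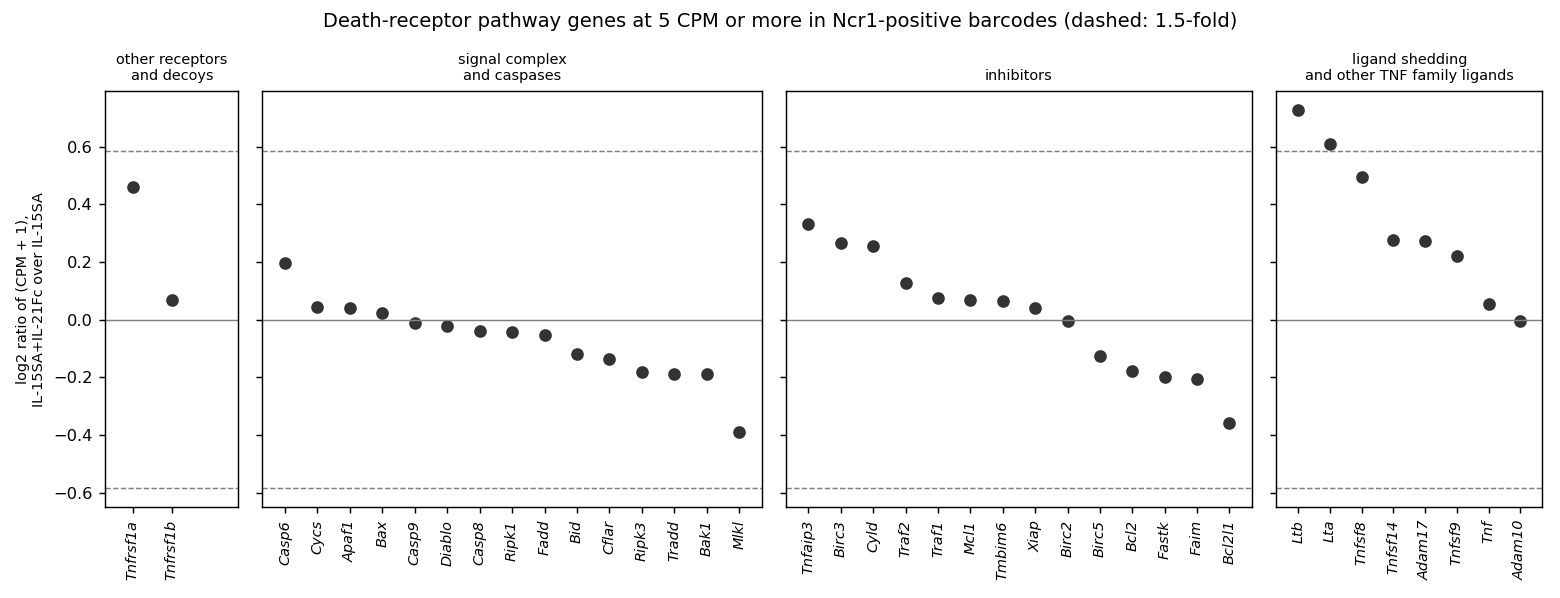
Log2 ratio of CPM + 1 of the IL-15SA+IL-21Fc library over the IL-15SA library (vertical axis) in Ncr1-positive barcodes for 39 measured genes of the death-receptor pathway list (horizontal axis, by role and sorted); dashed lines mark 1.5-fold. Only Ltb and Lta of these 39 lie past 1.5-fold, and 11 of the 15 genes shown of the signal complex and caspases lie below 0.

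Against Ncr1-positive barcodes, 3 of 44 list genes were at least 2-fold higher in the tumour-like barcodes of the IL-15SA+IL-21Fc library and 10 lower, and 3 of 43 were higher and 6 lower in the IL-15SA library. Of all genes tested, 21.3% were higher and 12.3% lower in the IL-15SA+IL-21Fc library, and 21.1% and 8.89% in the IL-15SA library. The same 3 were higher in both: Tnfrsf1a and the mouse TRAIL decoy receptor genes Tnfrsf22 and Tnfrsf23. Tnfrsf22 was at 18.6 CPM in tumour-like and 1.55 CPM in Ncr1-positive barcodes of the IL-15SA+IL-21Fc library, and at 21.9 and 1.40 CPM in the IL-15SA library. Tnfrsf23 was at 16.5 and 2.06 CPM, and at 17.3 and 1.96 CPM. Both decoy genes were under 5 CPM in Ncr1-positive barcodes and, like Tnfrsf10b, passed the filter only through the tumour-like barcodes, so their direction was fixed by the filter and their values are a description.

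Genes whose levels ran most like the members were sought over 10 points, the 5 clusters in each library, among the genes at 20 CPM or more. The points share libraries, depth and the clusters' own genes, so the correlations are descriptions. For Fasl the closest of 5215 genes were Cyth1, at a Pearson r of 0.982, and Btg1, a growth suppressor gene, at 0.968. For Tnfsf10 they were Msra, an enzyme gene of methionine sulfoxide repair, at 0.972, and Fam26f, at 0.927, with Jaml, an adhesion molecule gene, at 0.918. For Fas they were Il12rb2, which encodes a chain of the interleukin 12 receptor, at 0.930, and Ier5 at 0.924. Over the 20 points of the finer clustering Jaml led for Tnfsf10, at 0.770, Rab37 for Fasl, at 0.908, and Gng12 for Fas, at 0.834, with Il12rb2 at 0.780. The closest gene thus differed between the clusterings for all 3. For Tnfrsf10b, on few UMIs, Phax led at 0.936.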

How the data were processed

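Per the labels, CD45.2+CD3-NKp46+ cells were enriched and sorted from dissociated tumours, and the GEXSCOPE microwell kit was used for the libraries, which were sequenced as paired-end reads. The authors deposited raw counts of UMIs for each gene in each called barcode, without normalization, and these were summed here. Per the submitters' processing notes cutadapt, featureCounts, Seurat 4, Scanpy and mm10 were used, without their roles. No source used here gives the aligner, the gene annotation or how barcodes were called. The other deposited files, of gene and barcode names, gave symbols and IDs. Groups follow the sample titles. The title of the series names the treatments otherwise, as IL-21 with and without IL-15. Il2rg, which NK cells transcribe, had 0 UMIs, so a gene at 0 may be one to which no reads were assigned.

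Barcodes needed 200 genes and no more than 20% of UMIs from mitochondrial genes. This took out 5 barcodes in the IL-15SA+IL-21Fc library and 0 in the other. Scrublet's own threshold marked 0 and 2 barcodes and so had not worked. Instead the 5% with the highest doublet scores were removed, 621 and 419. Barcodes were clustered on 2000 variable genes without the 4 members, 30 components and 15 neighbours by the Leiden method at resolution 0.5, which gave 7 clusters. A cluster was called tumour or stroma-like if 3 or more tumour markers reached 5 times the median cluster and NK markers had a median ratio under 0.67. This held for 1 cluster, so background shares use its barcodes without an Ncr1 UMI. Python 3.11.15, scanpy 1.11.5, numpy 2.4.6, scipy 1.17.1, leidenalg 0.10.2 and igraph 0.11.9 were used.

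CPM are the summed UMIs of a gene over all UMIs of the population in that library. Counts past a fold add 1 CPM to both values, and printed ratios add nothing. Each treatment had 1 library and barcodes are not replicates, so no test was run and no p-value is given. The comparison code was checked on simulated Poisson counts with known fold changes, which hold no variation between cells, tumours or libraries. Clusters of at least 100 Ncr1-positive barcodes per library were compared. The genes of the pathway named are a fixed set of 17 and the 4 highest and 4 lowest log2 ratios, of which 2 are counted in the list but not reported here, and the decoy receptors were named after their values were seen. Of 13 state markers, Itgam, whose symbol 2 IDs share, was left out. The splits by Klrg1 and Cxcr6 within clusters were added after seeing the data. The members, lists and markers were chosen with earlier results of these data known. Alternatives were doublets kept, other rules for NK cells, finer clusters, other scaling, thinning, filters and pseudocounts.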

Additional observations from a re-analysis of the deposited data

How the results depend on the processing

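No paired analysis was possible because there was a single library per treatment, without a replicate number. Under 11 alternatives each, the log2 ratio between libraries in Ncr1-positive barcodes stayed above 0 and within the counting interval of its reported value for all 4 genes: 0.25 to 0.33 for Fasl, 0.15 to 0.44 for Tnfsf10, 0.15 to 0.33 for Fas and 0.14 to 0.51 for Tnfrsf10b. After thinning to 1000 UMIs the intervals for Tnfsf10 and Fas include 0, which those of all their UMIs did not. The alternative of resolution 1.0 without clusters 10 and 12 was chosen after seeing the data. Scaling by the median of gene ratios, 0.985, raised each of these log2 ratios by 0.02. The pathway list had 1 gene past 1.5-fold with 5 CPM added, against 2. The contrast of tumour-like with Ncr1-positive barcodes moved most. Its log2 ratio for Fasl was -1.96 in the IL-15SA+IL-21Fc library and -1.16 in the IL-15SA library. It was -2.83 and -2.15 with the tumour-like cluster of resolution 1.0, -2.33 and -1.84 without barcodes holding Ncr1, and -2.42 and -1.60 without doublet removal. Without barcodes holding Ncr1 it was -2.22 against -1.36 for Tnfsf10 in the IL-15SA+IL-21Fc library and -1.22 against -0.18 in the IL-15SA library, and 0.0066 against 1.498 for Tnfrsf10b in the IL-15SA library, on 1 UMI. These alternatives keep fewer or other barcodes by construction, and a further cause was not tested. Shares of barcodes with a UMI depend on the depth they are thinned to. Few UMIs limit Tnfrsf10b and every value of tumour-like barcodes in the IL-15SA library.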

Other observations

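Barcodes of the NK clusters in which no Ncr1 UMI was counted belong to neither population above. They numbered 703 in the IL-15SA+IL-21Fc library and 402 in the IL-15SA library. In them Fasl was at 202 CPM (179 to 227) and 168 CPM (142 to 198), close to its levels in Ncr1-positive barcodes. Tnfsf10 was at 26.3 CPM (18.4 to 36.5) and 10.4 CPM (4.78 to 19.8), on 36 and 9 UMIs, a ratio of 2.52 (1.19 to 5.95). Fas was at 26.3 CPM (18.4 to 36.5) and 18.6 CPM (10.6 to 30.2).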
